A study of Mus musculus with 13 samples.

Results

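The enzymes that write and erase 5-methylcytosine were followed through libraries of E14 cells, a mouse embryonic stem cell line of 129/Ola background. The genes were taken by symbol from the table of gene counts: Dnmt1, Uhrf1, Dnmt3a, Dnmt3b, Dnmt3l, Tet1, Tet2, Tet3 and Tdg. All 9 were found among 24470 genes, each in a single entry. The labels name no allele and no treatment for any group, and all cells were grown in Glasgow medium with 15% fetal bovine serum and leukemia inhibitory factor. In the low-input protocol the transposase Tn5 cut open chromatin of permeabilized cells, and oligo-dT beads then took the mRNA out of the same lysate, which gave an ATAC library and an mRNA library from each batch of cells. Experiment 1 took 10000 and 20000 cells through this protocol, and experiment 2, on another day, took 5000, 10000 and 20000, for 5 mRNA and 5 ATAC libraries in all. A benchmark of 3 libraries followed the Omni-ATAC protocol, with 5000, 10000 and 50000 cells.

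Cytosine methylation in mammals sits mostly at CpG dinucleotides. Dnmt1 copies the pattern of the old strand onto the new one after replication and is brought to hemimethylated sites by Uhrf1. Dnmt3a and Dnmt3b place methylation on unmethylated DNA, and Dnmt3l, which has no catalytic activity of its own, stimulates them. Tet1, Tet2 and Tet3 oxidize 5-methylcytosine, and the glycosylase Tdg cuts the most oxidized forms out for base excision repair. Embryonic stem cells kept in serum are known for high genome methylation, for active turnover of the mark and for abundant Tet1 and Tet2.

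The start regions that the ATAC results turn on are shown first. Each is a RefSeq window on GRCm38.p6 (mm10), from 250 bases before to 50 after an annotated transcription start, printed 5′ to 3′ along the gene. Capitals mark the bases that lay inside a deposited peak in the largest number of the 8 ATAC lists. Positions are counted in bases along the gene, with 0 at the start itself. The Dnmt1 and Uhrf1 windows are shown because peaks near them stood in all 8 lists, Tdg because its start was marked in 7 lists while its mRNA count was low, and Tet2 and Dnmt3l because they differ widely in CpG content.
Dnmt1, start 2, chr9:20952930-20953229, minus strand: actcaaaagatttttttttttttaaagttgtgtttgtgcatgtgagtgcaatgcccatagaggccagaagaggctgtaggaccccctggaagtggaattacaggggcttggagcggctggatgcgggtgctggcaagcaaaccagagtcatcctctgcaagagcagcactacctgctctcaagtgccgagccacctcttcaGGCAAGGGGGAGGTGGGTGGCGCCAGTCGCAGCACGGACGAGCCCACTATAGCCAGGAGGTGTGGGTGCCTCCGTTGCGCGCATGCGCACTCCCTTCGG
Uhrf1, start 2, chr17:56304063-56304362, plus strand: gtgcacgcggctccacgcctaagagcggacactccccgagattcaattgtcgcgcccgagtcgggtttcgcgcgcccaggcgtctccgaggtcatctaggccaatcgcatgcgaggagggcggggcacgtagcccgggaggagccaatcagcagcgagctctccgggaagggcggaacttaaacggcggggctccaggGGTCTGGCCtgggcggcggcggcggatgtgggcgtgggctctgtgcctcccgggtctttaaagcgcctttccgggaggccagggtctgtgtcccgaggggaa
Tdg, chr10:82629588-82629887, plus strand: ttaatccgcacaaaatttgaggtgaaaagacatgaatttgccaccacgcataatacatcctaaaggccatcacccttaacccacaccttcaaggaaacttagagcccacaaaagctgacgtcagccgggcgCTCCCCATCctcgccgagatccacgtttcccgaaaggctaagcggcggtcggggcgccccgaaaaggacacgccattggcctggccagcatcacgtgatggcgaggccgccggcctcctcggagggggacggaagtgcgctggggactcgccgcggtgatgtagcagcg
Tet2, chr3:133544341-133544640, minus strand: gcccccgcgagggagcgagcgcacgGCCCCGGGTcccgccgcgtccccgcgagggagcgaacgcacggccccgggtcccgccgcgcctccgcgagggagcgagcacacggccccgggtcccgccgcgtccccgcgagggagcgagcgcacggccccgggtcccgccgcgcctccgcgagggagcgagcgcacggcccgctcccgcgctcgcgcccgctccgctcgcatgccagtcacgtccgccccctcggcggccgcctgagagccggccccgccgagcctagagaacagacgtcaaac
Dnmt3l, start 2, chr10:78049592-78049891, plus strand: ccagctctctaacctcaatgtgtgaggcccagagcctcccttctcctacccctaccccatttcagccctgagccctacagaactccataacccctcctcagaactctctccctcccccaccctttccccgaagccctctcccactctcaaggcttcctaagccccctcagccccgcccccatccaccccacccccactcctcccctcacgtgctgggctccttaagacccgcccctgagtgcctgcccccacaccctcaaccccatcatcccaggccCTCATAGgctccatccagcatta

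In the Dnmt1 window the capitals cover 99 bases, from position -49 to 49, that 7 lists shared. In the Uhrf1 window they are the 9 bases from -52 to -44, which all 8 lists held. The 9 capital bases of Tdg, from -119 to -111, stood in 7 lists, the 9 of Tet2, from -225 to -217, in 4 lists, and the 7 of Dnmt3l, from 27 to 33, in 3 lists. The shared bases thus lay on the start itself at Dnmt1 and just upstream of it at Uhrf1 and Tdg.

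The mRNA libraries held between 13727122 and 20426252 counts in genes, and levels are given as CPM, the counts divided by that total and scaled. The limit that a count of 0 allows, 3 counts, lies at 0.147 to 0.219 CPM. CPM are not divided by transcript length, so levels are compared between libraries for the same gene and not between genes. Intervals are 95% Wilson intervals of a single library, and with the 3-count limit they cover counting error only. The 5 embryonic stem cell markers Pou5f1, Sox2, Nanog, Zfp42 and Dppa5a together gave 2416 to 2532 CPM in experiment 1 and 2586 to 2637 CPM in experiment 2. Of 7 fibroblast markers, Col3a1 and Lum had no count in any library, and the list's sum was 31.4 to 34.9 CPM in experiment 1 and 7.54 to 10.0 CPM in experiment 2, most of it from Thy1 in every library. Thy1 had 29.2 and 33.9 CPM in experiment 1 and 9.78, 6.77 and 7.05 CPM in experiment 2. The other markers of the list stood at 1.894 CPM or less and overlapped between the experiments. The 5 primitive endoderm markers, none of them at 0 everywhere, summed to 6.85 to 7.09 CPM in experiment 1 and to 1.61 to 1.96 CPM in experiment 2. These sums differed between the experiments along with the results below, and their part in them was not tested. In such bulk libraries, fewer cells of a type and less RNA per cell cannot be told apart.

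Experiment 2 was compared with experiment 1 to see how stable the methylation machinery was from day to day. Dnmt3l, the catalytically silent partner of the de novo enzymes, was the 1 gene of 9 that passed the test, and it was lower in experiment 2. The other 8 did not pass. By edgeR's quasi-likelihood test, 12.5% of all 12523 genes tested had an adjusted p (Benjamini-Hochberg) under 0.05, 5.75% higher and 6.76% lower in experiment 2, so 1 call among 9 genes is near the background. Their log2 fold changes had a median of -0.13, beside 0.000997 over all genes tested. The fit held the libraries from 10000 and 20000 cells, 2 per experiment. Nothing in the labels says that libraries of 1 experiment came from separate cultures, so the p-values measure the spread between these libraries, and the experiment cannot be told apart from anything else that differed between those days.

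**Figure D1:**
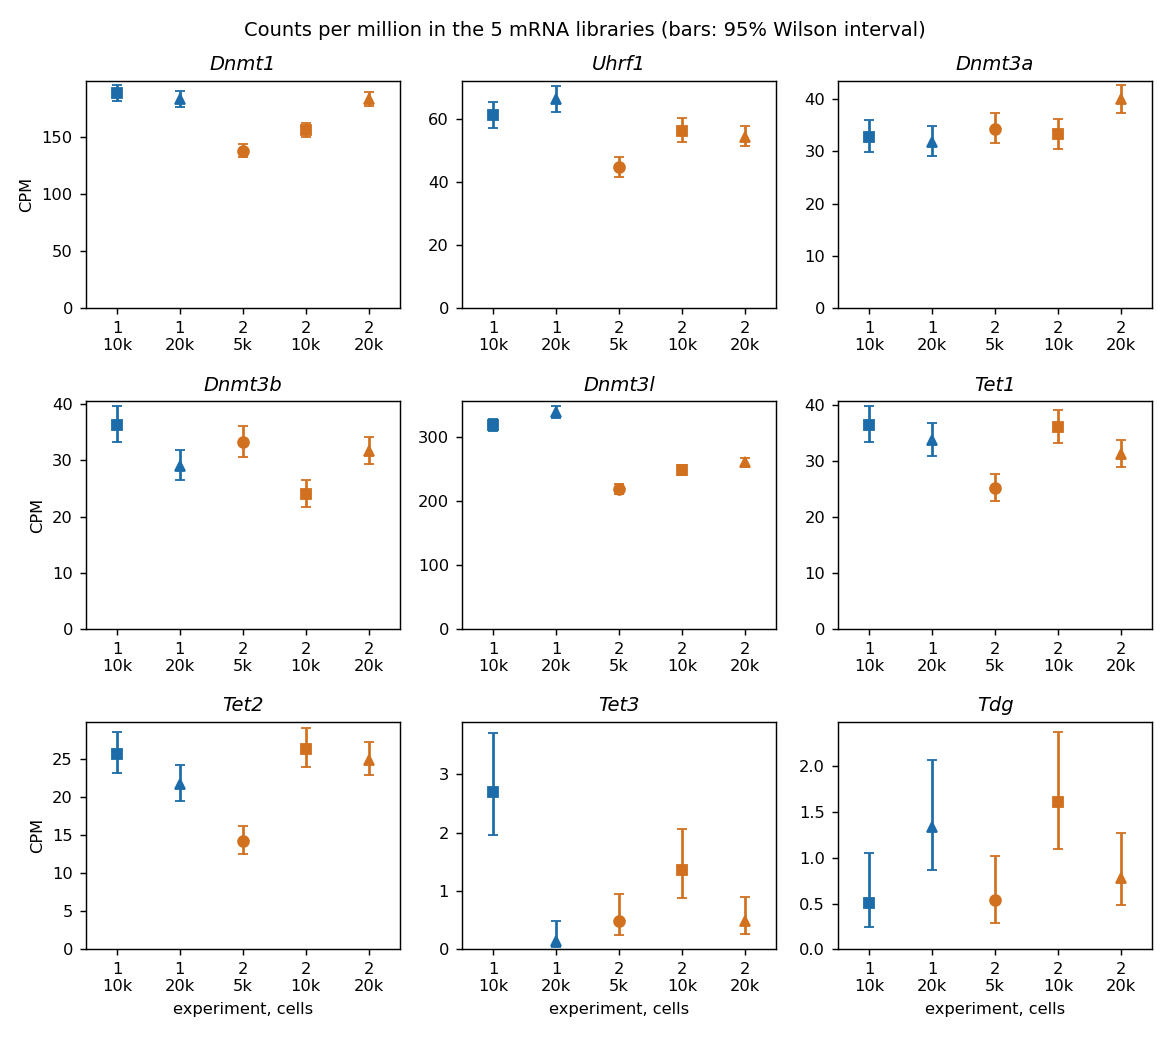
CPM (vertical axis, from 0, a scale of its own for each gene) of the 9 genes in each of the 5 mRNA libraries, labelled by experiment and number of cells, with 95% Wilson intervals for counting error. Blue symbols are experiment 1 and orange symbols experiment 2, with circles for 5000, squares for 10000 and triangles for 20000 cells; Dnmt3l stands at 319 and 340.0 CPM in experiment 1 and at 219 to 261 CPM in experiment 2, while Tet3 and Tdg stay under 3 CPM with wide intervals.

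Dnmt1 (chromosome 9, 20907206 to 20959888, minus strand), the maintenance methyltransferase, had 188 CPM with 10000 cells and 183 CPM with 20000 cells in experiment 1. In experiment 2 it had 138, 156 and 183 CPM with 5000, 10000 and 20000 cells. The library from 5000 cells was the lowest, and the experiments overlapped at 20000 cells, where both had 183 CPM. The fit gave a log2 fold change of -0.13 ± 0.12 (SE, adjusted p = 0.566).

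Uhrf1 (chromosome 17, 56303337 to 56323486, plus strand), which recruits Dnmt1, had 61.3 and 66.4 CPM in experiment 1. It had 44.7, 56.4 and 54.5 CPM with 5000, 10000 and 20000 cells in experiment 2. All libraries of experiment 2 lay below both of experiment 1, and the one from 5000 cells was again the lowest. The log2 fold change was -0.20 ± 0.14 (SE, adjusted p = 0.401). The count of Dnmt1 relative to that of Uhrf1 stayed between 2.75 and 3.35 in all 5 libraries. Dnmt1, Uhrf1, Dnmt3l, Tet1 and Tet2 each had their lowest value with 5000 cells. That input is a single library, and the share of all genes tested that were lowest in it was not counted.

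Dnmt3a (chromosome 12, 3806980 to 3914443, plus strand), a de novo methyltransferase, had 32.8 and 31.7 CPM in experiment 1 and 34.3, 33.2 and 39.9 CPM in experiment 2 with rising cell number. Every experiment 2 library lay above both of experiment 1, by a margin that at 10000 cells was within the Wilson intervals of 29.9 to 36.0 and 30.5 to 36.2 CPM. Between experiments the log2 fold change was 0.18 ± 0.16 (SE, adjusted p = 0.543).

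Dnmt3b (chromosome 2, 153649449 to 153687730, plus strand), the other de novo methyltransferase, had 36.3 and 29.0 CPM in experiment 1 and 33.3, 23.99 and 31.6 CPM in experiment 2. The experiments overlapped, and the lowest value came from 10000 cells in experiment 2. Its log2 fold change was -0.23 ± 0.18 (SE, adjusted p = 0.472). The count of Dnmt3a relative to that of Dnmt3b was 0.904 and 1.09 in experiment 1 and 1.03, 1.38 and 1.26 in experiment 2. This ratio is not per length, so only its change between libraries can be read, and its ranges in the experiments overlapped.

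Dnmt3l (chromosome 10, 78042287 to 78063622, plus strand) had 319 CPM with 10000 cells and 340.0 CPM with 20000 cells in experiment 1. In experiment 2 it had 219 CPM with 5000, 249.5 CPM with 10000 and 261 CPM with 20000 cells. The experiments did not overlap: the highest library of experiment 2 lay below the lowest of experiment 1, and their Wilson intervals, up to 268 and from 309.6 CPM, were apart as well. The fall was 0.775-fold, a log2 fold change of -0.37 ± 0.11 (SE, adjusted p = 0.0359). At 10000 cells the log2 ratio of CPM was -0.35 and at 20000 cells -0.38, so the change had nearly the same size at both cell numbers. With the library from 5000 cells added to experiment 2 the log2 fold change was -0.40 (adjusted p = 0.0235). Without a filter on low counts the call was lost, at -0.34 (adjusted p = 0.0563). The call did not hold in a fit of 3 libraries: the log2 fold change was -0.41 (adjusted p = 0.122) without the 10000-cell library of experiment 1 and -0.30 (adjusted p = 0.235) without its 20000-cell library. It was -0.33 (adjusted p = 0.152) without the 10000-cell library of experiment 2 and -0.39 (adjusted p = 0.0794) without its 20000-cell library.

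Tet1 (chromosome 10, 62804570 to 62880014, minus strand), a dioxygenase that starts demethylation, had 36.5 and 33.7 CPM in experiment 1 and 25.2, 36.1 and 31.3 CPM in experiment 2. The library from 5000 cells was the lowest and the others overlapped. In the fit the log2 fold change was -0.06 ± 0.17 (SE, adjusted p = 0.876).

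Tet2 (chromosome 3, 133463677 to 133544390, minus strand), its paralog, had 25.6 and 21.6 CPM in experiment 1 and 14.2, 26.3 and 24.9 CPM in experiment 2. The 5000-cell library stood apart, with a Wilson interval of 12.5 to 16.1 CPM, below those of the other 4 libraries, of which the lowest began at 19.4 CPM. The log2 fold change over the 4 libraries of the fit was 0.12 ± 0.18 (SE, adjusted p = 0.751), and with the 5000-cell library it was -0.084 (adjusted p = 0.859). The count of Tet1 relative to that of Tet2 was 1.77 with 5000 cells and between 1.26 and 1.56 in the other libraries.

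Tet3 (chromosome 6, 83362373 to 83441678, minus strand), the third dioxygenase, was near the limit of detection. It had 37 counts (2.70 CPM) with 10000 cells and 2 counts (0.134 CPM) with 20000 cells in experiment 1. In experiment 2 it had 8 counts (0.477 CPM), 21 counts (1.35 CPM) and 10 counts (0.490 CPM) with 5000, 10000 and 20000 cells. The libraries from 10000 cells were the highest in both experiments, and the 2 counts of the lowest library lie under the limit of 3 counts. The log2 fold change between experiments was -0.62 ± 0.95 (SE, adjusted p = 0.746). Without the 10000-cell library of experiment 1 it was 2.71. With that library kept and cell number as a replicate block it was 0.036, so its direction was not stable.

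Tdg (chromosome 10, 82629838 to 82650494, plus strand), the glycosylase, had 7 and 20 counts (0.510 and 1.34 CPM) in experiment 1. It had 9, 25 and 16 counts (0.537, 1.61 and 0.783 CPM) in experiment 2, so the experiments overlapped. The log2 fold change was 0.36 ± 0.84 (SE, adjusted p = 0.848), and it was -0.17 (adjusted p = 0.957) without the 10000-cell library of experiment 1 and -0.23 (adjusted p = 0.959) without that of experiment 2. A pseudogene listed as Tdg-ps2 (chromosome 10, 42052558 to 42055453) had more counts in every library, 122 and 96 in experiment 1 and 132, 178 and 231 in experiment 2. How reads that match several places were counted is not given in the sources used here, so the level of Tdg is uncertain.

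**Figure D2:**
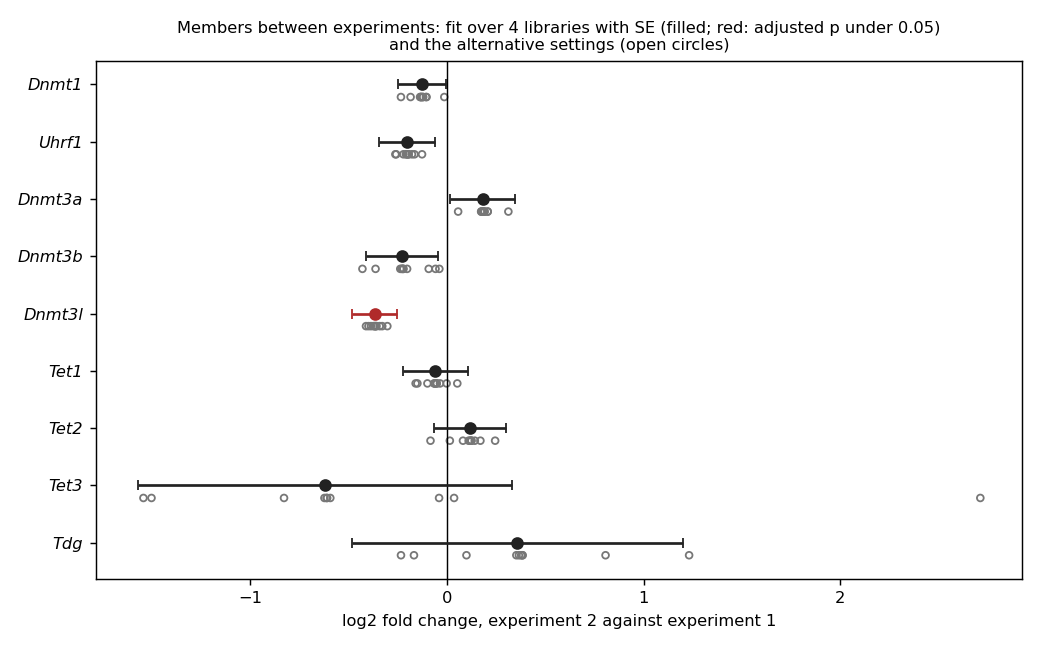
Log2 fold change of each gene between experiment 2 and experiment 1 (horizontal axis) from the fit over 4 libraries, as filled points with the standard error, and under the other settings tried, as open circles. Dnmt3l, in red, is the only one with an adjusted p under 0.05 and stays between -0.41 and -0.30 under each setting plotted, while the open circles of Tet3 spread from -1.54 to 2.71.

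Across the 5 libraries, 1 of the 9 genes (Dnmt3a) lay higher in every library of experiment 2, where 17.7% of all genes tested did. A further 2 of the 9 (Dnmt3l and Uhrf1) lay lower in every library, where 23.9% of genes did, and the other 6 overlapped. These shares are near the background. The coefficient of variation over the 5 libraries was 9.31% for Dnmt3a, 12.8% for Dnmt1, 14.2% for Tet1, 14.3% for Uhrf1, 15.1% for Dnmt3b, 18.1% for Dnmt3l and 22.2% for Tet2. It was 51.8% for Tdg and 100.4% for Tet3, the genes with the fewest counts.

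The effect of the input was read from the libraries of unequal cell number. At 20000 against 10000 cells, none of the 9 genes and 0 of 12523 genes had an adjusted p under 0.05 by edgeR (percent called 0), with 101 at an unadjusted p under 0.05, and DESeq2 gave 0 and 60. The log2 fold changes were 0.07 ± 0.17 for Dnmt1, 0.02 ± 0.20 for Uhrf1, 0.10 ± 0.21 for Dnmt3a, -0.01 ± 0.26 for Dnmt3b and 0.06 ± 0.21 for Dnmt3l (SE). They were -0.18 ± 0.20 for Tet1, -0.18 ± 0.22 for Tet2 and -0.03 ± 0.89 for Tdg (SE). Tet3 had the largest difference of the 9, -2.64 ± 0.95 (SE, adjusted p = 0.999), which ran from -3.84 to -2.03 with 1 library left out. With the experiment as a replicate block, 4 genes were called none of them among the 9, and Tet3 then had an adjusted p of 0.942. The writers and the erasers Tet1 and Tet2 had differences of less than 1 SE each without the block, and with it Tet1 had -0.18 ± 0.17 (SE, adjusted p = 0.998). The biological coefficient of variation was 32% without the block and 17.5% with it. In simulated counts with the spread of the fit without the block, 3.59% of 2-fold and 59.6% of 4-fold changes were called, so that fit could rarely detect a change of 2-fold, and the blocked fit was not simulated.

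The genes that act beside the enzymes were read from lists. In the maintenance list (Pcna, Usp7, Hells, Cdca7, Zbtb24, Uhrf2, Dmap1), 0 of 7 genes passed the test between experiments, and the list's median log2 fold change was 0.07. Pcna, the replication clamp, came nearest at 0.34 ± 0.12 (SE, adjusted p = 0.0661), with 206 and 197 CPM in experiment 1 and 215, 274.5 and 236 CPM in experiment 2. The 12 S-phase genes had a median of -0.00488, with 1 higher and 1 lower, a share near the 12.5% called over all genes tested. Mcm5, a subunit of the replicative helicase, rose by 0.42 ± 0.12 (adjusted p = 0.0179), and Ccne1, the cyclin of S-phase entry, fell by 0.44 ± 0.11 (adjusted p = 0.0110). With the 5000-cell library added, Mcm5 had an adjusted p of 0.0571.

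Among 6 genes that direct or limit methylation (Dppa3, Prdm14, Nsd1, Setd2, Zfp57, Trim28), 1 rose, beside 5.75% of all genes tested, and the list's median was 0.06. Dppa3, also called Stella, which is known to keep Uhrf1 off chromatin, had 0.947 and 1.14 CPM in experiment 1 and 14.9, 7.42 and 11.5 CPM in experiment 2. The experiments were far apart, and the log2 fold change was 3.17 ± 0.40 (SE, adjusted p = 5.852e-06). The other 5 genes of this list lay between -0.01 and 0.12. Prdm14, a repressor of the de novo enzymes, was one of them at 0.12 ± 0.29 (SE, adjusted p = 0.848).

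In the list that feeds or partners the Tet enzymes (Ogt, Cxxc4, Cxxc5, Idh1, Idh2, Gadd45a, Gadd45b, Gadd45g), 6 of 8 genes passed the filter on low counts and 0 were called, with a median of 0.125. Of 10 base excision repair genes, 5 other glycosylases (Neil1, Neil2, Smug1, Mbd4, Ung) and 5 genes of the later steps (Apex1, Xrcc1, Parp1, Lig3, Polb), 1 rose, beside 5.75% of all genes tested, and the median was 0.16. Polb, the repair polymerase, had 20.7 and 20.0 CPM in experiment 1 and 30.7, 29.8 and 32.5 CPM in experiment 2, a log2 fold change of 0.61 ± 0.18 (SE, adjusted p = 0.0223). None of the 5 methyl-CpG readers that passed the filter, of 7 listed, and none of 3 genes of methyl donor supply were called, with medians of -0.07 and 0.26. With 12.5% called over all genes tested, lists this short can hold no call without differing from the background.

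Genes whose promoters are known to be held silent by methylation were given as a further list. Of 9 such germline genes 8 passed the filter, all 8 had negative log2 fold changes, 4 were called lower, where 6.76% of all genes tested were, and the median was -1.70. Mael, a piRNA pathway gene, had 19.9 and 18.2 CPM in experiment 1 and 2.45, 3.42 and 4.21 CPM in experiment 2, a log2 fold change of -2.31 ± 0.26 (SE, adjusted p = 7.8e-07). The others called were Dazl, an RNA-binding protein of germ cells, at -1.46 ± 0.38 (SE, adjusted p = 0.0123), Sycp1, of the synaptonemal complex, at -1.94 ± 0.45 (SE, adjusted p = 0.00533), and Slc25a31, a testis ADP/ATP carrier, at -2.53 ± 0.80 (SE, adjusted p = 0.0370). With the 5000-cell library added Slc25a31 had an adjusted p of 0.246. The lists of genes were written with earlier results of these data known, so their directions are descriptions.

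Pluripotency lists were read beside the enzymes. Of 8 genes of the naive state 2 rose: Klf2, at 0.34 ± 0.11 (SE, adjusted p = 0.0497), and Klf4, at 0.42 ± 0.13 (SE, adjusted p = 0.0381), both transcription factors. Over all genes tested 5.75% rose. The list's median was 0.18, with 5 genes above 0 and 3 below. Tbx3, also a transcription factor, had the largest difference of the list, -0.53 ± 0.20 (SE, adjusted p = 0.0880), and its adjusted p was 0.0465 with cell number as a replicate block and 0.0471 with the 5000-cell library added. With the 5000-cell library added, Klf4 had an adjusted p of 0.0802, and with cell number as a replicate block Klf2 had 0.0560. Of 7 formative genes 4 passed the filter, with a median of -0.26, 1 gene above 0 and 3 below. Dusp6 had -0.51 ± 0.19 (SE, adjusted p = 0.0891), and its adjusted p was 0.0384 with the 5000-cell library added. Zic2, a zinc-finger factor, rose by 2.52 ± 0.57 (SE, adjusted p = 0.00400) from 0.437 and 1.07 CPM in experiment 1 to 3.998 and 4.75 CPM with 10000 and 20000 cells in experiment 2. It had 0.895 CPM with 5000 cells, within the range of experiment 1, and an adjusted p of 0.0540 with that library added.

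**Figure D3:**
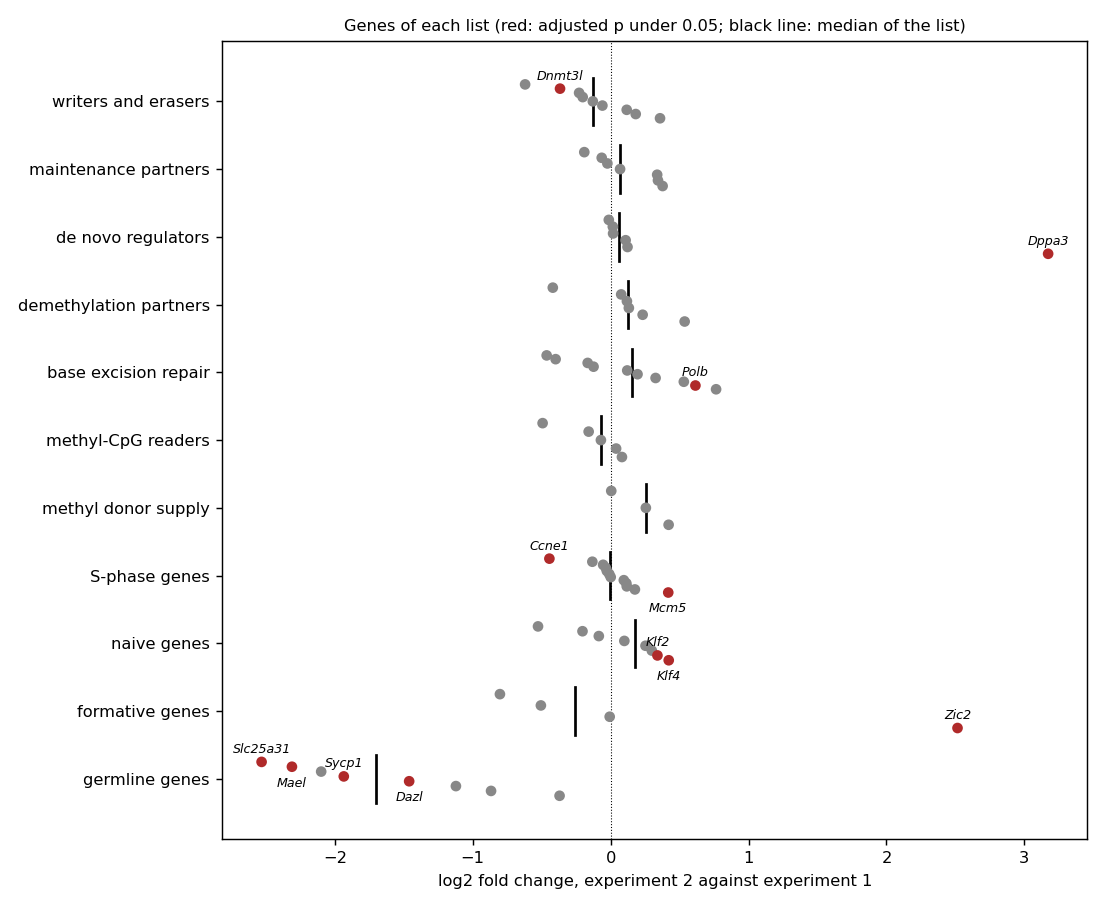
Log2 fold change between experiment 2 and experiment 1 (horizontal axis) of each gene that passed the filter on low counts, by list, with red points for an adjusted p under 0.05 and a black line at the median of the list. The medians of the enzymes and their partners lie between -0.13 and 0.26, the germline genes have a median of -1.70, and Dppa3 stands alone at 3.17.

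For each enzyme the gene with the most similar course over the 5 mRNA libraries was named, by the Pearson correlation of log2(CPM + 1) over genes averaging 10 CPM or more. It was Rad21 for Dnmt1, Necap2 for Uhrf1, Cenpt for Dnmt3a, Prph for Dnmt3b and Lmna for Dnmt3l. It was Snx27 for Tet1, Nudcd2 for Tet2, Eid2 for Tet3 and Zfp281 for Tdg. These correlations ran from 0.992 for Tdg to 0.999 for Dnmt3l over only 5 libraries, among 6484 or more candidates, and are descriptions.

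Open chromatin at the starts of the enzymes was read from the 8 deposited peak lists, which hold intervals and no height, and whose depth is unknown. Lists ran from 9097 peaks (Omni-ATAC, 5000 cells) to 95457 peaks (Omni-ATAC, 50000 cells), and 24.4% to 59.2% of a list were intervals of 9 bp, the shortest width. Measured from the 5′ end of the gene in the count table, 1 of 9 genes, Uhrf1, had a peak within 1000 bp in all 8 lists, where 25.9% of the genes tested for expression and 14.8% of all genes did. That end misses an annotated start at several of the genes. Measured from any RefSeq start, a choice made after the data were seen, 2 of 9 genes (Dnmt1 and Uhrf1) had a peak in all 8 lists, beside 27.9% of 9989 genes with a RefSeq start. In 7 or more lists it was 4 of 9 (with Tet2 and Tdg), beside 45.9%.

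**Figure D4:**
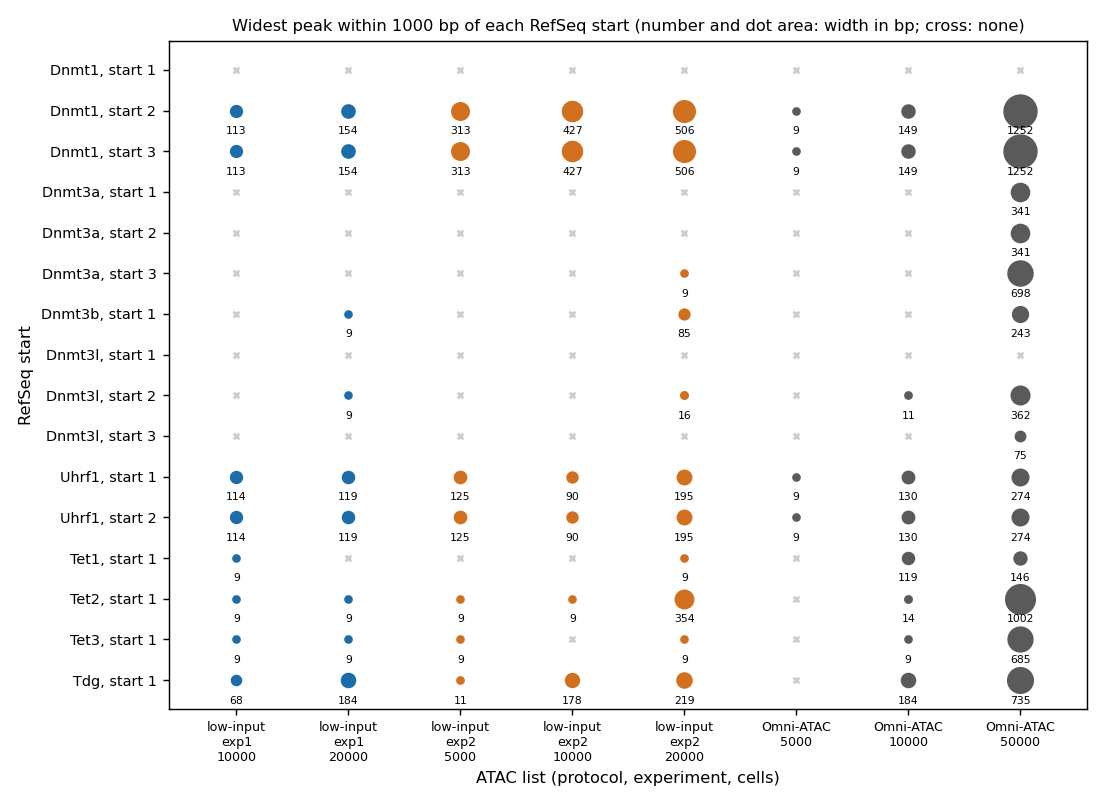
Width in bp of the widest peak within 1000 bp of each of the 16 RefSeq starts of the 9 genes (vertical axis) in each of the 8 ATAC lists (horizontal axis), with blue for experiment 1, orange for experiment 2 and grey for Omni-ATAC, dots that grow with the width and crosses where there was no peak. Starts 2 and 3 of Dnmt1 and both starts of Uhrf1 are marked in all 8 lists, and start 1 of Dnmt1 in none.

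Counted by list, 2 of the 9 genes had a peak near a RefSeq start in the Omni-ATAC list from 5000 cells (background 34.3%), 7 in that from 10000 cells (70.7%) and 9 in that from 50000 cells (92.7%). In the low-input lists of experiment 1 it was 6 with 10000 cells (56%) and 7 with 20000 cells (65.6%). In those of experiment 2 it was 5 with 5000 cells (56.7%), 4 with 10000 cells (70.7%) and 9 with 20000 cells (83.6%). The longest lists marked all 9 genes, and the shortest marked only Dnmt1 and Uhrf1, in both by intervals of 9 bp alone.

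Dnmt1 has 3 RefSeq starts. The most upstream one, which is the end in the count table, had no peak in any list. Start 2, 6909 bp further in, had one in all 8 lists, with widths of 113 and 154 bp in experiment 1, of 313, 427 and 506 bp in experiment 2, and of 9, 149 and 1252 bp in Omni-ATAC, in order of cell number. Both experiment 2 lists from 10000 and 20000 cells had wider peaks there than their counterparts in experiment 1, and they were also the longer lists, with 29870 and 49508 peaks against 18877 and 27016. The experiment 2 list from 5000 cells, with 18637 peaks the shortest of the low-input lists, had a wider peak there as well. Start 3 lies 7265 bp from the most upstream one, close enough to start 2 to share its peaks. Uhrf1 has 2 starts, 976 bp apart, and every list had a peak that covered bases just upstream of start 2, 9 to 274 bp wide, of which the widest, in Omni-ATAC from 50000 cells, crossed the start.

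Start 2 of Dnmt1 carries the letters CGCATGCG, the core of the sequence bound by the factor NRF1 and the same on both strands, from position 30, inside the capitals of its window. Start 3 of Dnmt1 carries them from position 15, and start 2 of Uhrf1 from position -145, inside peaks of 6 lists. They stand in 1.86% of 32817 RefSeq windows of the same length and in no window of the other 7 genes. This core was chosen after the windows had been read. The E2F-type letters TTTGGCGC stand at start 3 of Dnmt1, from position 33, and in 0.515% of all windows. The GC box GGGCGG was in 12 of the 16 windows of the 9 genes (35.6% of all windows), CCAAT in 6 (37.4%) and the E-box CACGTG in 3 (7.15%), and TATAAA in 0 (13.6%). These are matches of letters, not sites shown to be bound.

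**Figure D5:**
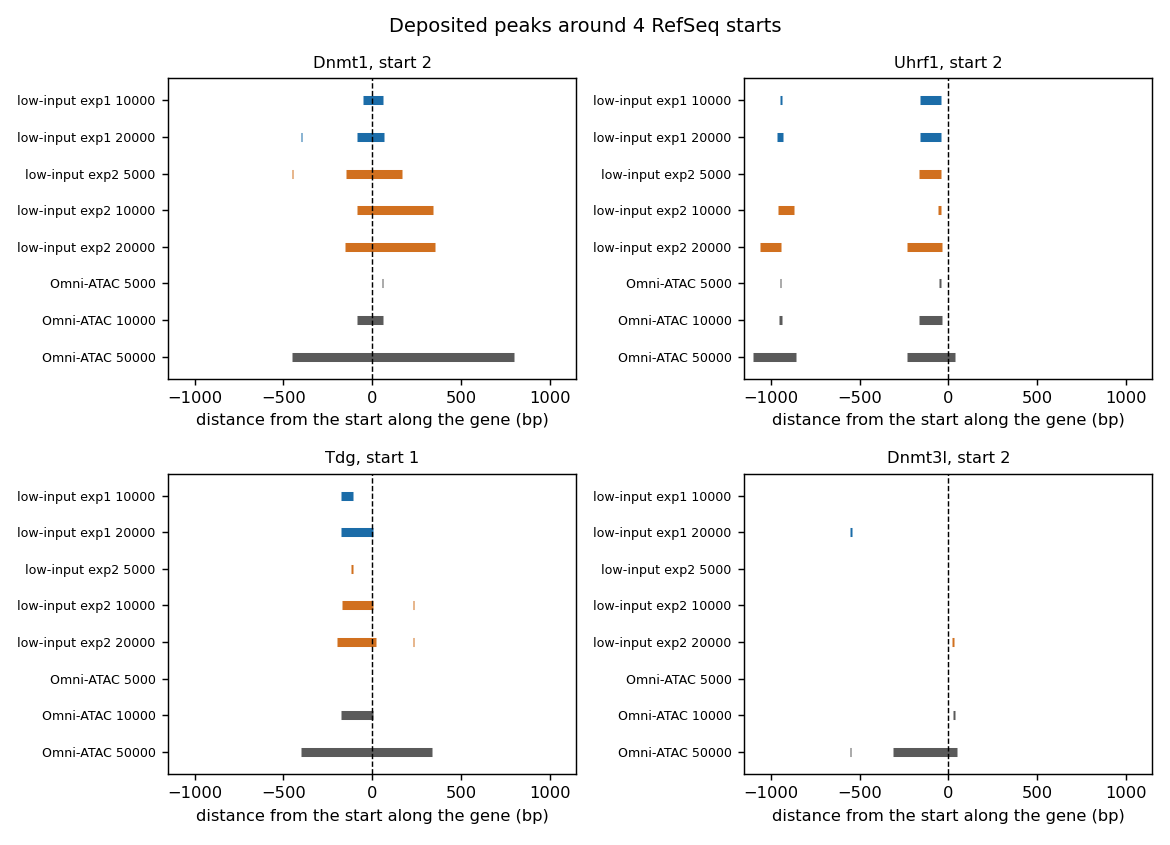
Deposited peaks as bars by distance in bp along the gene from a RefSeq start (dashed line at 0), 1 line per ATAC list, with blue for experiment 1, orange for experiment 2 and grey for Omni-ATAC. Peaks cross the start of Dnmt1 in 7 lists and lie 55 to 63 bp past it in the eighth, end 44 to 39 bp before that of Uhrf1 in 7 lists, cover the upstream side of Tdg in 7, and are scattered at Dnmt3l in 4.

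Among the de novo enzymes, Dnmt3a had peaks near its upstream starts in 1 list, Omni-ATAC from 50000 cells, and near start 3, 84764 bp inside the gene, in 2 lists. Dnmt3b had a peak in 3 lists, 9 and 85 bp wide in the 20000-cell lists of experiments 1 and 2 and 243 bp wide in Omni-ATAC from 50000 cells. Dnmt3l, with 219 to 340.0 CPM of mRNA, had no peak at the end in the count table and peaks near start 2, 7555 bp inside, in 4 lists, of which 3 were 9 to 16 bp wide. Just outside the 1000 bp windows lay chr10:78043452-78043619 and chr10:78048170-78048778, each held by 5 lists. The first begins 1165 bp past the end in the count table, and the second ends before start 2, which is at 78049842.

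Among the erasers, the start of Tet1 in RefSeq lies 7310 bp upstream of the end in the count table and had peaks in 4 lists. Tet2 had them in 7 lists, of which the 4 shortest low-input ones held only intervals of 9 bp, and Tet3 in 6 lists, 5 of them with 9 bp intervals alone. Tdg, at 0.510 to 1.61 CPM, had peaks in 7 lists, the widest of each list being 11 to 735 bp. The unified list, which the authors made for the series, held a region at the starts of Dnmt1, Uhrf1, Tet2 and Tdg and none at those of the other 5 genes.

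CpG content separated the starts. The Tet2 window printed above holds 57 CpG dinucleotides, more than 99.8% of all windows, and the upstream windows of Dnmt3a hold 46 and 47, where the median of all 32817 windows is 7. All 3 windows of Dnmt3l were below that median, with 6, 4 and 3. Dnmt1 went from 2 at start 1, without peaks, to 12 at start 2 and 33 at start 3. Uhrf1 start 2 held 33, Dnmt3b 30, Tdg 26, Tet3 22 and Tet1 17. Content and peaks did not go together throughout, since Dnmt3a had the second highest content and peaks in few lists.

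Inside the genes, at least 1000 bp from every start, Tet2 had the most peaks of the 9. Peaks of all lists within 100 bp of each other were joined, and a region was counted if 4 or more lists held it. Tet2 had 8 such regions over 80.7 kb, more than 99.9% of the 803 tested genes of similar length (within 1.2-fold), whose median was 0. Several of the 8 lie close together, between chr3:133532468 and chr3:133534427, with gaps too wide to be joined at 100 bp. No other joining distance was tried, so how far the rank depends on it was not tested. The region chr3:133534179-133534427 stood in all 8 lists, and 3 more, chr3:133518707-133519087, chr3:133524431-133525137 and chr3:133533756-133533845, in all but Omni-ATAC from 5000 cells. They lay 9963 to 25303 bp inside the gene.

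Dnmt3a had 2 such regions, chr12:3825864-3825980 and chr12:3870979-3871884, in all 3 lists of experiment 2 and in neither of experiment 1. The Tet2 region chr3:133513640-133513658 had the same pattern, as did 4.93% of the 5297 such regions inside all genes tested, where 0.245% stood in both lists of experiment 1 and in none of experiment 2. Outside experiment 2, the first Dnmt3a region and this Tet2 region stood only in Omni-ATAC from 50000 cells. They thus passed the rule of 4 or more lists through experiment 2. Experiment 1 has fewer lists, so its pattern passes that rule less easily, and these shares cannot be set against each other. Dnmt3l had 2, chr10:78043452-78043619 and chr10:78048170-78048778, of which the second stood in the experiment 2 lists from 10000 and 20000 cells and in neither list of experiment 1. Of the 5297 regions, 14.7% stood in no list of experiment 1. Tet1 had 1, chr10:62865259-62865538, in 7 lists, and Dnmt1 had 1, chr9:20943981-20944076, in 6. The other 4 genes had none, like 74.2% of the genes tested. With no counts behind the peaks, differences between these lists have no test.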

How the data were processed

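The authors deposited whole-number gene counts for 5 mRNA libraries. Per the file headers, the coordinates are those of mm10. The ATAC files, deposited by the authors as intervals, are 8 peak lists, 1 per library, and a unified list, with no score. The submitters' processing notes name cutadapt, Bowtie2 2.1.0, SAMtools 1.3.1, Picard, bedtools 2.24.0, MACS2 2.1.1, STAR 2.5, featureCounts and Subread 1.5.0-p1. Peak thresholds, strandedness and how reads matching several places were handled are not given in the sources used here. Near-identical copies, overlapping genes and antisense genes are therefore uncertain.

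CPM were computed from those deposited counts and the library total. No library duplicated another: the closest pair differed by a chi-square of 10.7 per gene, above sampling noise. Experiment 2 against 1 and 20000 against 10000 cells were tested on the 4 libraries from 10000 and 20000 cells with edgeR 4.0.16 (TMM, filterByExpr, glmQLFit, glmQLFTest, R 4.3.3), with Benjamini-Hochberg adjustment over all genes tested and a threshold of 0.05. The SE was taken as the size of the log2 fold change over the square root of the F statistic. The library from 5000 cells has no counterpart in experiment 1 and entered only an alternative. The steps were tested on simulated counts: between experiments 49.7% of 2-fold (12201 genes) and 86.5% of 4-fold changes (12185 genes) were called, and between cell numbers 3.59% (12106 genes) and 59.6% (12084 genes). The experiment marks a shared day per the series description, so it pairs libraries across cell numbers. The difference between experiments at 10000 cells correlated with that at 20000 cells with r = 0.536 over 12523 genes, and the difference between cell numbers with r = -0.00339.

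A promoter peak was a deposited interval within 1000 bp of the gene's 5′ end in the count table, or, as a choice made after the data were seen, of any RefSeq start. Of the table's genes 24467 were matched by gene ID to RefSeq tables of GRCm38.p6, and all 9 enzymes had start windows there. Motifs were searched on both strands. Software was scipy 1.17.1, pandas 2.3.3, numpy 2.4.6 and matplotlib 3.10.9 under Python 3.11.15.

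The alternatives were DESeq2 1.42.0, RLE size factors, scaling by library size, no low-count filter, a filter at 10 CPM, a replicate block, all 5 libraries, leaving out each library in turn, promoter distances of 500 and 2500 bp, peaks of at least 50 bp, and leaving out the shortest list. Named genes are the 9 enzymes, up to 4 genes a list with an adjusted p under 0.05 by size of change, and for each enzyme the gene with the highest correlation. Pcna, Prdm14, Tbx3, Dusp6, Thy1 and Tdg-ps2 were named after their values were seen. The enzymes and the lists were chosen with earlier results of these data known. Sequence came only from the RefSeq start windows. Protein sequences and the rest of the genome sequence were not used here.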

Additional observations from a re-analysis of the deposited data

Results flagged for a closer look

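For 4 genes, the log2 ratio of CPM between experiment 2 and experiment 1 had opposite signs at 10000 and at 20000 cells. For Dnmt1 it was -0.269 at 10000 cells and 0.000763, next to no difference, at 20000 cells. Dnmt3b had -0.597 at 10000 cells and 0.123 at 20000 cells. Tet3 had -0.993 at 10000 cells and 1.87 at 20000 cells, on counts of 37 against 21 and of 2 against 10. Tdg had 1.66 at 10000 cells and -0.773 at 20000 cells, on counts of 7 against 25 and of 20 against 16. With 1 library for each cell number and experiment, these differences were not tested.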

How the results depend on the processing

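Dnmt1, Uhrf1, Dnmt3a, Dnmt3b and Dnmt3l kept the direction of their change between experiments under all 11 alternatives, and Dnmt3l passed the threshold in 6 of them. Without a filter on low counts Dnmt3l had -0.34 (adjusted p = 0.0563) and 0 of the 9 were called. That setting moved the median log2 fold change of all genes to 0.121. Leaving out 1 library left 0 to 0 of the 9 called and 803 to 1817 genes called (1018 without the 10000-cell library of experiment 1, 803 without that of experiment 2 and 869 without the 20000-cell library of experiment 2), where fits of 3 libraries assume that the lone library varies like the others. The cause was not tested. Directions turned for genes that passed no test: with 1 library left out Tet1 ran from -0.16 to 0.052, Tet3 from -1.54 to 2.71 and Tdg from -0.23 to 1.23, Tet2 was -0.084 with all 5 libraries, and Tet3 was 0.036 with cell number as a replicate block. The block by cell number, where the libraries share only a number, changed no call among the 9 and gave 1765 genes in place of 1567. With the experiment as a replicate block, 4 genes were called between cell numbers in place of 0. The enzymes with a promoter peak in all 8 lists were 0 within 500 bp, 0 with peaks of at least 50 bp, 3 without the Omni-ATAC list from 5000 cells, 2 by any RefSeq start and 1 within 2500 bp. Low counts limit Tet3 and Tdg, at 2 to 37 a library, and for Tdg the handling of reads that match several places is not known.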
